A study of Mus musculus with 16 samples.

Results

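The 9 transcription factor genes Pou4f1, Pou4f2, Pou4f3, Isl1, Tlx3, Runx1, Shox2, Maf and Mafa, which direct the specification of sensory neuron lineages, were taken by symbol from the 24982 gene entries of a raw count table of mouse lumbar dorsal root ganglia. All 9 were present and all 9 passed the filter on low counts, which left 15507 genes. RNA was sequenced from TrkA/C knock-in mice (KI, a name taken from the labels) and from wild-type (WT) mice, all C57BL/6 and aged 10 to 12 weeks. Complete Freund's adjuvant (CFA, which provokes a lasting joint inflammation) or vehicle, titled saline, had been injected into the ankle joint 14 days before sampling. The groups were KI with CFA, KI with saline, WT with CFA and WT with saline, with 4 libraries each, and every library pooled 6 ganglia of the injected side (L4 to L6) from 2 mice. The labels do not describe the TrkA/C construct or its promoter, nor whether it is carried on 1 or both alleles.

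Somatosensory neurons of the dorsal root ganglion arise from the neural crest and split into nociceptors, touch receptors and proprioceptors. POU4F1 (Brn3a) and ISL1 are homeodomain factors present in nearly all of these neurons from birth, and they act together to close the early neurogenic programme and open sensory genes. TLX3 and RUNX1 then direct the non-peptidergic nociceptor branch, in which RUNX1 turns off peptidergic genes, while SHOX2, MAF and MAFA act in touch receptor branches that carry the receptors TrkB, TrkC or RET.

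Ntrk3, which encodes the receptor TrkC, was read first as a check of the titles. It had 99.1 to 138 CPM (a gene's reads scaled to library size, with TMM factors between libraries) in the 8 KI libraries, against 29.3 to 61.4 CPM in the 8 WT libraries. The library titled as WT CFA replicate 1 has a knock-in genotype tag in its labels, but its Ntrk3 level of 48.4 CPM lay with the other WT libraries, and it was kept under its title. Total counts ran from 22742209 to 40910947 per library. Of 18 pan-neuronal genes, all were detected. Their mean log2 CPM, computed without TMM factors, was 8.77 in WT saline 4 and between 8.93 and 9.04 in the other 15 libraries. WT saline 4 also had the highest summed ribosomal protein gene level, 7500 CPM. KI saline 1 and KI saline 4 had the highest summed levels of skeletal muscle genes, 944 and 799 CPM, and KI CFA 3 that of neutrophil and marrow genes, 323 CPM, so the results below were also computed without these 4 libraries.

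Per kilobase of exon, Tlx3, Pou4f1 and Isl1 were the most abundant of the 9. The median over 16 libraries was 58.8 CPM per kb for Tlx3, 45.0 CPM per kb for Pou4f1 and 23.1 CPM per kb for Isl1. Runx1 followed with 10.1 CPM per kb, then Pou4f3 with 8.69, Shox2 with 7.08, Maf with 7.00 and Pou4f2 with 5.93 CPM per kb. Mafa was lowest, with 1.74 CPM per kb and 97 to 206 reads in a library. The ranges over libraries of Tlx3, Pou4f1, Isl1 and Mafa per kb did not overlap with those of their neighbours in this order, while those of Runx1, Pou4f3, Shox2, Maf and Pou4f2 overlapped with each other. The annotation used for counting is not given in the sources used here, and with the length of the longest transcript in place of the union of exons Isl1 stood at 36.4, Runx1 at 20.7 and Maf at 9.07 CPM per kb, the last above Pou4f3 at 8.84 CPM per kb. Across the 16 libraries Isl1 varied least, 1.21-fold between its lowest and its highest library. Runx1 varied most, 1.89-fold, followed by Mafa with 1.88-fold. The place of Runx1 rests on WT saline 4 with 77.0 CPM. Its next lowest library, WT CFA 4, had 100.4 CPM and its highest, KI CFA 2, had 145 CPM.

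Several of these genes are paralogs, and reads of 50 bases can be shared between them. The longest identical coding stretch of Pou4f1 (chr14:104461676-104467999, minus strand, GRCm38) and Pou4f2 (chr8:78433010-78436645, minus strand) spans coding bases 871 to 941 of Pou4f1 and 841 to 911 of Pou4f2. It is shown because a read that falls wholly inside it cannot be given to either gene.
Pou4f1 and Pou4f2: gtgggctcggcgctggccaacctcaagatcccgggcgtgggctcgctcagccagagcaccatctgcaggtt
Only 23 of the possible 50-base reads of each were identical, 0.498% of those of Pou4f1 and 0.729% of those of Pou4f2. The longest identical coding stretch of Maf (chr8:115682942-115707794, minus strand) and Mafa (chr15:75745490-75748228, minus strand) has 21 bases, so that no read of 50 bases can lie wholly within it.
Maf and Mafa: tacaaggagaaatacgagaag
For Pou4f3, Isl1, Tlx3 and Mafa no 50-base exon sequence was shared with another annotated gene. Runx1, Shox2 and Maf each overlap a gene on the opposite strand, Gm26626, Rsrc1 and Gm15655, over 0.881%, 4.62% and 5.34% of their exon length. The strand mode of the counting is not given in the sources used here, so reads from those stretches cannot be told apart. In Maf, 4.64% of the possible 50-base reads were shared with other genes.

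**Figure D1:**
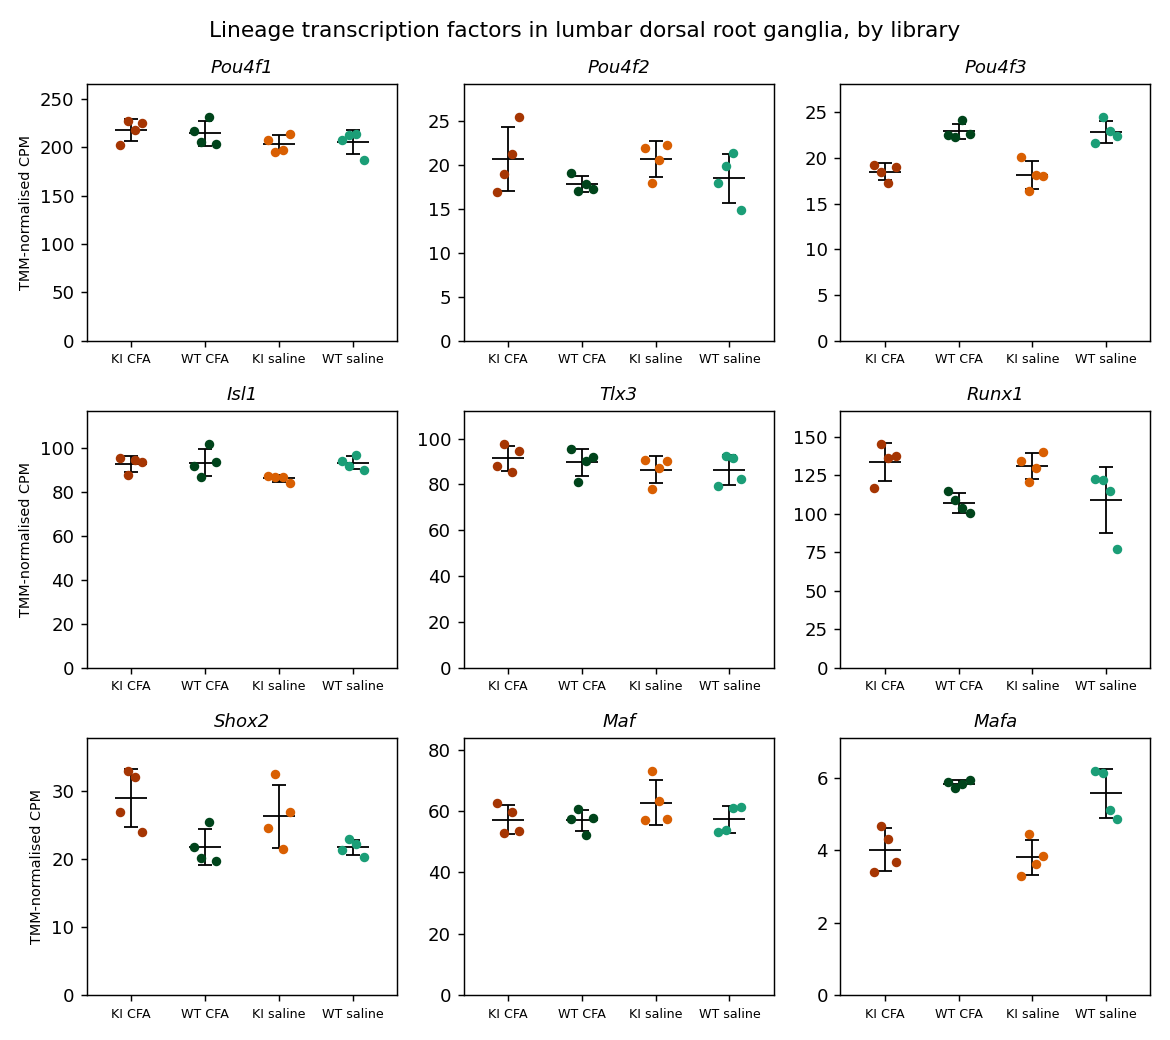
TMM-normalised CPM of the 9 transcription factors in each of the 16 libraries (points), with the mean and SD of each group of 4 (black bars). All 8 KI libraries lie below all 8 WT libraries for Pou4f3 and Mafa, while Pou4f1, Isl1 and Tlx3 differ little between genotypes.

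The comparison of KI with WT ganglia asks how the sensory lineage factors stand in mice with altered Trk receptors. Averaged over both injections, 2 of the 9 factors were lower in KI ganglia (Mafa and Pou4f3) and 2 were higher (Runx1 and Shox2), and the other 5 were not called. Calls rest on edgeR's quasi-likelihood test, at a p under 0.05 after Benjamini-Hochberg adjustment over all 15507 genes, and fold changes are KI over WT on the log2 scale ± SE. Of all tested genes, 8.96% were called in this comparison. Within the CFA groups, Mafa and Pou4f3 were lower in KI ganglia and no factor was called higher, while 2.84% of all tested genes were called. Within the saline groups the same pair was lower, while 4.34% of all tested genes were called. Without WT CFA 1, the library with the conflicting tag, the 4 log2 differences over both injections were −0.54 for Mafa, −0.32 for Pou4f3, 0.32 for Runx1 and 0.35 for Shox2, all called. In a bulk sample, fewer cells of a type and less RNA per cell cannot be told apart.

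Mafa encodes a basic leucine zipper factor that, together with MAF, acts in RET-positive and other low-threshold touch receptors. Mafa had 3.40, 4.69, 4.32 and 3.69 CPM in the KI CFA libraries, against 5.89, 5.73, 5.84 and 5.94 CPM in the WT CFA libraries. With saline it had 3.29, 4.45, 3.62 and 3.86 CPM in KI libraries, against 6.19, 6.13, 5.13 and 4.86 CPM in WT libraries. Every KI library lay below every WT library. The coefficient of variation was 1.51% in WT CFA, against 12.2% in WT saline, 14.5% in KI CFA and 12.9% in KI saline libraries. The 1.51% comes from 4 libraries with 164 to 206 Mafa reads each, too few to measure so small a spread. Over both injections Mafa averaged 3.91 ± 0.512 CPM in KI ganglia and 5.71 ± 0.471 CPM in WT ganglia (SD, n = 8 each). The log2 difference was −0.54 ± 0.09 (edgeR adjusted p = 0.000983), a fold of 0.685 with a 95% interval of 0.595 to 0.790. The differences within CFA (−0.54 ± 0.13, edgeR adjusted p = 0.031) and within saline (−0.55 ± 0.13, edgeR adjusted p = 0.0289) were of like size. Each rested on 4 against 4 libraries and was close to the threshold. The CFA call was lost without KI CFA 1, 3 or 4 or without any 1 of the WT CFA libraries (−0.57 to −0.47), and the saline call without KI saline 1, 3 or 4 or WT saline 1 or 2 (−0.56 to −0.49). Without the 4 libraries that stand apart neither passed (−0.57, edgeR adjusted p = 0.0535 within CFA, and −0.53, edgeR adjusted p = 0.217 within saline).

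Pou4f3 (Brn3c, chr18:42394539-42397249, plus strand) encodes the third class IV POU factor, known from auditory hair cells and from a subset of somatosensory neurons. Pou4f3 had 19.3, 18.5, 17.2 and 19.0 CPM in KI CFA libraries, against 22.5, 22.3, 24.1 and 22.6 CPM in WT CFA libraries. With saline it had 20.1, 16.4, 18.1 and 18.02 CPM in KI libraries, against 21.6, 24.5, 23.0 and 22.4 CPM in WT libraries. Here too all 8 KI libraries were below all 8 WT libraries. The mean was 18.3 ± 1.18 CPM in KI ganglia and 22.9 ± 0.962 CPM in WT ganglia (SD, n = 8 each), with a log2 difference of −0.32 ± 0.05 (edgeR adjusted p = 0.000393) and a fold of 0.801 (95% interval 0.742 to 0.864). Within CFA the difference was −0.31 ± 0.07 (edgeR adjusted p = 0.0204) and within saline −0.33 ± 0.07 (edgeR adjusted p = 0.014). The CFA call was lost without KI CFA 2 (−0.31), KI CFA 3 (−0.27) or WT CFA 3 (−0.28), and without the 4 libraries that stand apart (−0.27, edgeR adjusted p = 0.0673). The longest coding stretch that Pou4f3 shares is 41 bases with Pou4f1 and 35 with Pou4f2, shorter than a read. The other 2 class IV POU genes were not called, so the 3 paralogs did not all carry the same call.

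Runx1 (chr16:92601466-92826149, minus strand) encodes the runt domain factor of the non-peptidergic nociceptor lineage. Runx1 had 117, 145, 136 and 138 CPM in KI CFA libraries, against 115, 109, 104 and 100.4 CPM in WT CFA libraries. With saline it had 134, 120.5, 129.9 and 140.3 CPM in KI libraries, against 123, 122, 115 and 77.0 CPM in WT libraries. The CFA groups did not overlap, whereas KI saline 2 lay below 2 of the WT saline libraries. Runx1 averaged 133 ± 9.79 CPM in KI ganglia and 108 ± 14.8 CPM in WT ganglia (SD, n = 8 each), and 6 of 8 KI libraries lay above every WT library. The log2 difference over both injections was 0.29 ± 0.08 (edgeR adjusted p = 0.0217), a fold of 1.23 (95% interval 1.09 to 1.38), while neither injection alone passed (CFA 0.32 ± 0.11, edgeR adjusted p = 0.155, and saline 0.27 ± 0.11, edgeR adjusted p = 0.15). WT saline 4, the library with the lowest pan-neuronal level, had the lowest Runx1 level of all 16. Without WT saline 4 the log2 difference was 0.23 ± 0.05 over both injections (edgeR adjusted p = 0.00402), 0.32 ± 0.06 within CFA (edgeR adjusted p = 0.00508) and 0.13 ± 0.07 within saline (edgeR adjusted p = 0.347). Without all 4 libraries that stand apart it was 0.19 ± 0.05 over both injections (edgeR adjusted p = 0.0589), 0.32 ± 0.07 within CFA (edgeR adjusted p = 0.0235) and 0.06 ± 0.08 within saline (edgeR adjusted p = 0.831). With the mean log2 CPM of the pan-neuronal genes as a covariate it was 0.26 ± 0.04 over both injections (edgeR adjusted p = 9.09e-05), 0.33 ± 0.05 within CFA (edgeR adjusted p = 0.000453) and 0.18 ± 0.05 within saline (edgeR adjusted p = 0.0448), all called.

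**Figure D2:**
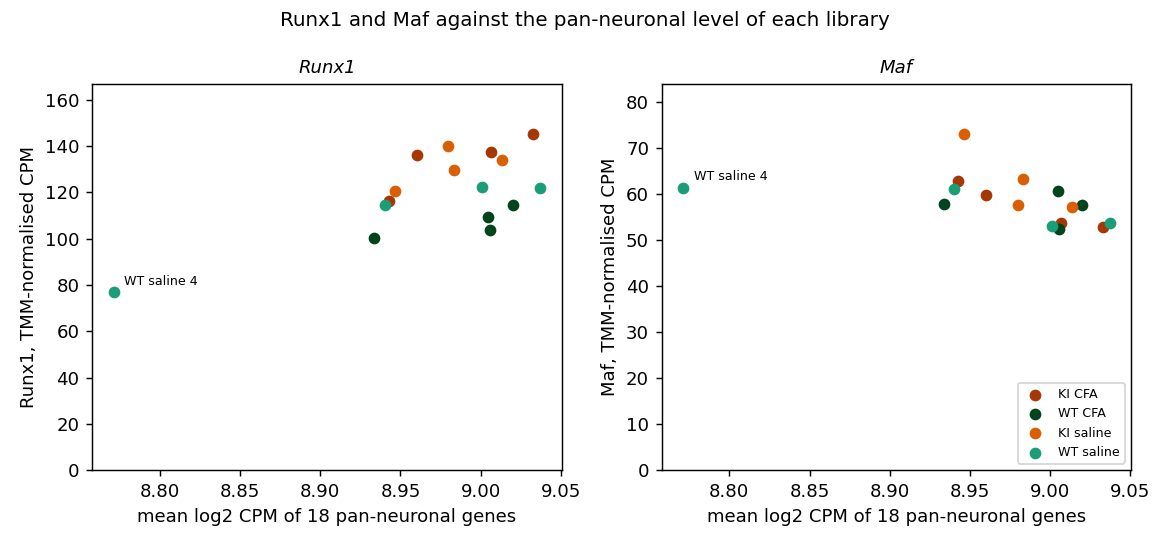
Runx1 (left) and Maf (right) in TMM-normalised CPM against the mean log2 CPM (without TMM factors) of 18 pan-neuronal genes, with 1 point per library coloured by group. WT saline 4 stands alone at a pan-neuronal level of 8.77 with the lowest Runx1 level, 77.0 CPM, and a Maf level of 61.3 CPM within the range of the other libraries.

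Shox2 (chr3:66971727-66981771, minus strand) encodes a homeodomain factor that in the mouse promotes the TrkB-positive touch receptor fate over the TrkC-positive one. Shox2 had 27.0, 32.9, 32.1 and 23.9 CPM in KI CFA libraries, against 21.7, 20.2, 25.5 and 19.7 CPM in WT CFA libraries. With saline it had 24.6, 32.4, 21.5 and 26.9 CPM in KI libraries, against 21.4, 23.0, 22.2 and 20.3 CPM in WT libraries. The KI libraries spread widely, and 5 of 8 lay above every WT library while the other 3 lay within the WT range. Shox2 averaged 27.7 ± 4.36 CPM in KI ganglia and 21.7 ± 1.88 CPM in WT ganglia (SD, n = 8 each). The log2 difference was 0.35 ± 0.09 over both injections (edgeR adjusted p = 0.0151), a fold of 1.27 (95% interval 1.12 to 1.45), with 0.41 ± 0.12 within CFA (edgeR adjusted p = 0.0797) and 0.28 ± 0.12 within saline (edgeR adjusted p = 0.171). The CFA difference passed without KI CFA 4 (0.50), KI saline 2 (0.41) or WT CFA 3 (0.50). Without the 4 libraries that stand apart the difference over both injections was 0.32 ± 0.10 (edgeR adjusted p = 0.0888).

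Promoter sequence is given for the 2 factors that were higher in KI ganglia, as a view of the DNA just before their starts. RefSeq (GRCm38.p6) gave 7 promoters for 6 of the 9 factors, and the 250 bases before each start were searched on both strands for TGTGG (the core of RUNX sites), TGCTGA (a MAF half-site) and TAAT (a homeodomain core). The motifs share no overlap in the printed sequences, and capitals mark each match. Of the 32851 mouse promoters in the table, 49.3% hold TGTGG, 16.1% hold TGCTGA and 54.9% hold TAAT, so a single match is common.
Shox2, chr3:66981772-66982021 (minus strand): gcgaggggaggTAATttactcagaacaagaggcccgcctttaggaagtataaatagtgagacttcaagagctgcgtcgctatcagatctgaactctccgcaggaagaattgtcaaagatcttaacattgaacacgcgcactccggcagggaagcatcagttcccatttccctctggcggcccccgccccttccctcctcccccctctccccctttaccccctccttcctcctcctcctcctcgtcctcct
Runx1, proximal start, chr16:92697330-92697579 (minus strand): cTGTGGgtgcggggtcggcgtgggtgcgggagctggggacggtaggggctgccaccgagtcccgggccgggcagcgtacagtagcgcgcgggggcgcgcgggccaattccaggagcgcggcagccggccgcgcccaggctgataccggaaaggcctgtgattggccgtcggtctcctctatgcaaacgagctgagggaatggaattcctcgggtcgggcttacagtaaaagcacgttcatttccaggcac
The Shox2 window held 1 TAAT and neither of the other motifs, and the Runx1 proximal window held 1 TGTGG. The window before the distal Runx1 start held 1 TGTGG and 1 TAAT. The Tlx3 window held 5 TAAT and the Isl1 window 2, while those of Pou4f1 and Pou4f2 held none of the 3 motifs.

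**Figure D3:**
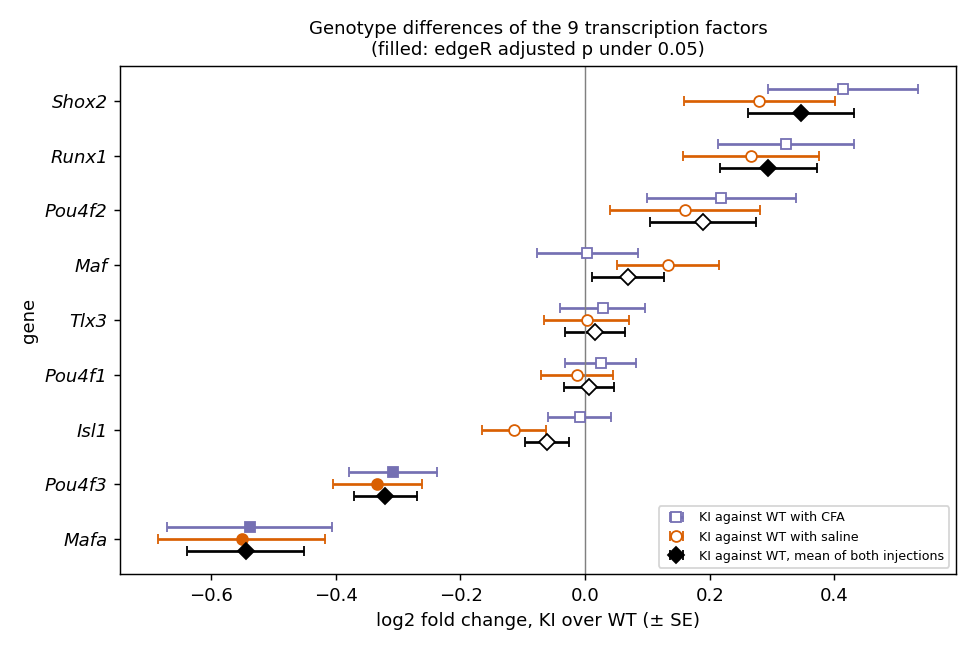
Log2 fold change of KI over WT ± SE for each factor within CFA (squares), within saline (circles) and over both injections (diamonds), filled where edgeR's adjusted p was under 0.05. Mafa and Pou4f3 are filled in all 3 comparisons on the lower side, and Shox2 and Runx1 only for the mean of both injections on the higher side.

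Pou4f1, Tlx3 and Isl1 differed little between genotypes. Pou4f1 had 202, 228, 218 and 225 CPM in KI CFA libraries and 208, 195, 197 and 214 CPM in KI saline libraries. In WT libraries it had 217, 206, 231 and 204 CPM with CFA and 208, 213, 214 and 187 CPM with saline. The genotypes overlapped fully, with a log2 difference of 0.01 ± 0.04 (edgeR adjusted p = 0.943) and a fold of 1.00 (95% interval 0.945 to 1.07). Tlx3 (chr11:33200752-33203589, minus strand), which encodes a homeodomain factor that acts with RUNX1 in nociceptors, ranged over 77.97 to 97.5 CPM in KI libraries and 79.4 to 95.3 CPM in WT libraries. Its log2 difference was 0.02 ± 0.05 (edgeR adjusted p = 0.881), a fold of 1.01 (95% interval 0.940 to 1.09). Isl1 (chr13:116298281-116309689, minus strand) had 86.9, 86.6, 86.7 and 83.8 CPM in KI saline libraries, against 94.0, 91.5, 96.8 and 90.0 CPM in WT saline libraries. These saline groups did not overlap, but the difference was small and not called (−0.11 ± 0.05, edgeR adjusted p = 0.183). With CFA, Isl1 had 87.4 to 95.4 CPM in KI libraries and 86.5 to 101 CPM in WT libraries, a log2 difference of −0.01 ± 0.05 (edgeR adjusted p = 0.986). Over both injections the Isl1 fold was 0.958 (95% interval 0.908 to 1.01).

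Pou4f2 and Maf were also not called. Pou4f2 (Brn3b), best known from retinal ganglion cells, averaged 20.6 ± 2.72 CPM in KI ganglia and 18.1 ± 1.96 CPM in WT ganglia (SD, n = 8 each), with a log2 difference of 0.19 ± 0.08 (edgeR adjusted p = 0.176) and a fold interval of 1.00 to 1.30. KI CFA 4 was its highest library, with 25.4 CPM, and WT saline 4 its lowest, with 14.8 CPM. Maf (c-Maf), which directs touch receptor development and is also expressed by macrophages, averaged 60.0 ± 6.45 CPM in KI ganglia and 57.2 ± 3.72 CPM in WT ganglia (SD, n = 8 each). Its log2 difference was 0.07 ± 0.06 (edgeR adjusted p = 0.498), with a fold interval of 0.961 to 1.14, and its highest library was KI saline 2, with 73.0 CPM. Maf and Mafa, which act in related touch receptors, thus carried different calls. A test of the difference between the 2 genes was not made.

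CFA changed no factor by the test in either genotype. In KI ganglia 0 of 9 factors and 0% of tested genes were called between CFA and saline, with 881 genes at an unadjusted p under 0.05. In WT ganglia 0 of 9 factors and 0% of tested genes were called, with 1079 genes at an unadjusted p under 0.05. DESeq2 called 17 genes in KI and 24 in WT ganglia, and limma-voom 0 in KI and 1 in WT ganglia, none of them a factor of the 9. Over both genotypes edgeR called 4 genes (0.0258%), with 0 of the 9 factors called. Without KI saline 2 edgeR called 53 genes in KI ganglia and 39 over both genotypes, again with 0 of the 9 factors. In the other fits that leave out 1 library it called 0 genes in KI ganglia, 0 to 2 in WT ganglia (2 without WT CFA 1) and 0 to 7 over both genotypes (7 without KI CFA 1). Isl1 had the smallest p of the 9 in KI ganglia, with 95.4, 87.4, 94.3 and 93.5 CPM in KI CFA libraries, against the 83.8 to 86.9 CPM of KI saline libraries given above. These groups did not overlap, and the log2 difference of CFA over saline in KI was 0.11 ± 0.05 (edgeR adjusted p = 0.873), the 1 value of the 9 with an unadjusted p under 0.05 there. In WT ganglia the Isl1 difference was 0.00 ± 0.05. Shox2 (0.14 ± 0.12) and Maf (−0.13 ± 0.08) had larger differences of CFA over saline in KI ganglia with larger errors, and Pou4f1 had 0.10 ± 0.06. In WT ganglia the 9 log2 differences lay between −0.06 and 0.07. The fold intervals of CFA over saline over both genotypes were narrow for the 3 most abundant factors, 0.995 to 1.12 for Pou4f1, 0.984 to 1.10 for Isl1 and 0.974 to 1.13 for Tlx3. For Shox2 and Mafa they were wider, 0.922 to 1.19 and 0.912 to 1.21.

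The interaction term asks whether the genotype difference itself changed with CFA. It was called for 0 of 9 factors and 0% of tested genes, with 976 genes at an unadjusted p under 0.05 by edgeR, and DESeq2 and limma-voom also called 0 genes. The 9 interaction terms lay between −0.13 and 0.13 on the log2 scale, with 0.13 ± 0.17 for Shox2, 0.11 ± 0.07 for Isl1 and −0.13 ± 0.12 for Maf. For Mafa the term was 0.01 ± 0.19 and for Pou4f3 0.03 ± 0.10. The interval of the ratio of folds for Mafa, 0.760 to 1.34, shows how much change this design leaves undetected.

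Genes known from work in mice to depend on these factors were read beside them, from lists chosen with earlier results of these data known. On the list of 8 genes that RUNX1 represses or that mark peptidergic nociceptors, all 8 fell in KI ganglia. Their median log2 difference was −0.54, against 0.00 over all tested genes. Of all tested genes, 4.33% were called higher and 4.64% lower over both injections. The lists overlap, and Ntrk3, Gfra2, Gal, Runx3 and Etv1 each count on more than 1. Calca, which encodes CGRP, fell to 696 ± 52.2 CPM in KI ganglia, against 1219 ± 249 CPM in WT ganglia (SD, n = 8 each, −0.81 ± 0.09). The neuropeptide genes Gal (−1.24 ± 0.16), Adcyap1 (−0.55 ± 0.06) and Tac1 (−0.53 ± 0.08) fell, as did the capsaicin receptor gene Trpv1 (−0.52 ± 0.07), Calcb (−0.35 ± 0.09) and the opioid receptor gene Oprm1 (−0.27 ± 0.08). The Oprm1 call (edgeR adjusted p = 0.0454) was lost in 12 of the 16 fits that leave out 1 library (−0.28 to −0.21), all except those without KI CFA 3, KI CFA 4, WT CFA 4 or WT saline 4. It was also lost with 6 other settings, among them the higher WT source numbers (−0.16) and the replicate block (−0.27), and at an adjusted p under 0.01. The Calcb call was lost with the lower WT source numbers (−0.18, edgeR adjusted p = 0.124), pan-neuronal size factors (−0.41, edgeR adjusted p = 0.0526) and the macrophage covariate (−0.34, edgeR adjusted p = 0.0861).

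Of 22 genes that need RUNX1 in nociceptors, 7 rose, 1 fell and 14 were not called in KI ganglia. Over all tested genes 4.33% were called higher and 4.64% lower. The median log2 difference of the 22 was 0.14. Mrgprd, which encodes the receptor that marks non-peptidergic nociceptors, rose to 244 ± 14.3 CPM in KI ganglia, against 195 ± 19.5 CPM in WT ganglia (SD, n = 8 each, 0.32 ± 0.05). Slc17a8 (0.35 ± 0.08), Gfra2 (0.28 ± 0.06), Plxnc1 (0.27 ± 0.05), the sodium channel gene Scn11a (0.25 ± 0.05) and Tmem45b (0.15 ± 0.04) also rose. Trpm8, which encodes the cold receptor, was the 1 gene that fell, to 41.1 ± 4.17 CPM in KI ganglia, against 52.5 ± 5.14 CPM in WT ganglia (−0.35 ± 0.06). With the macrophage score as a covariate, 3 of the 22 were called higher, and Slc17a8, Gfra2, Scn11a and Tmem45b were among those that missed the threshold (0.13 to 0.27). Tmem45b also missed it with pan-neuronal size factors (0.10, edgeR adjusted p = 0.358), the muscle covariate (0.14), the higher WT source numbers (0.11) and without the 4 libraries that stand apart (0.15), and Slc17a8 without those 4 libraries (0.25, edgeR adjusted p = 0.105).

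**Figure D4:**
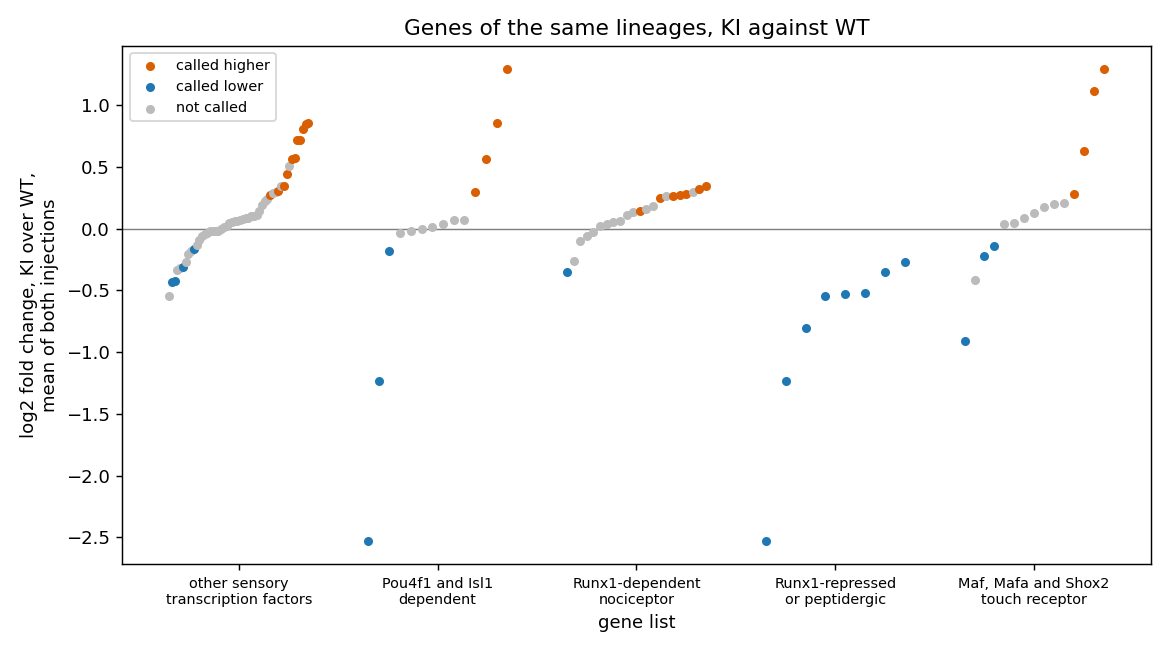
Log2 fold change of KI over WT, mean of both injections, for every tested gene of 5 lists related to the 9 factors, with 1 point per gene ordered within its list and coloured by its call. All 8 RUNX1-repressed or peptidergic genes lie below 0, and the other 4 lists hold calls in both directions.

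On the touch receptor list, 4 of 15 genes rose, 3 fell and 8 were not called, with a median log2 difference of 0.12. Over all tested genes 4.33% were called higher and 4.64% lower. Ntrk3 is on this list and rose (1.29 ± 0.10). It encodes the TrkC of the knock-in's name and served above as the check of the titles. Its rise is thus no separate result about touch receptor genes. Calb2, which encodes calretinin, rose to 19.0 ± 7.22 CPM in KI ganglia, against 8.76 ± 2.40 CPM in WT ganglia (1.11 ± 0.20). Colq (0.63 ± 0.10) and Gfra2 rose as well. Among the 3 that fell were Calb1 (−0.22 ± 0.06), which encodes calbindin, and Crip2 (−0.14 ± 0.04), and without KI saline 2 both missed the threshold (−0.21 and −0.13). Calb1 also lost its call without KI CFA 3 (−0.21), KI saline 3 (−0.21) or WT CFA 2 (−0.19), and Crip2 without KI CFA 3 (−0.13), KI saline 4 (−0.13), WT CFA 3 (−0.12) or WT CFA 4 (−0.14). Crip2 was further lost with the lower WT source numbers (−0.09, edgeR adjusted p = 0.221), without the 4 libraries that stand apart (−0.11), with the muscle covariate (−0.16), with the macrophage covariate (−0.16) and with pan-neuronal size factors (−0.19). Calb1 was further lost with the lower (−0.25) or higher (−0.19) WT source numbers and with the macrophage covariate (−0.24).

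The list of genes that need POU4F1 or ISL1 holds Runx1 and Tlx3 themselves. Of its 14 tested genes 4 rose, 3 fell and 7 were not called, with a median log2 difference of 0.03. For this and the next list, the shares over all tested genes were again 4.33% called higher and 4.64% lower. The 4 that rose were Ntrk3, Runx3, Etv1 and Runx1, and Gal and Gfra1 (−0.18 ± 0.04) were among the 3 that fell. Here too Ntrk3 is the gene used to check the titles, and its rise is no separate result about this list. Beyond the 9, a list of 56 other sensory transcription factors had 52 tested genes, of which 11 rose, 4 fell and 37 were not called, with a median log2 difference of 0.07. Runx3, which encodes the runt factor of TrkC-positive proprioceptors, rose to 24.6 ± 4.37 CPM in KI ganglia, against 13.5 ± 2.00 CPM in WT ganglia (SD, n = 8 each, 0.86 ± 0.10, edgeR adjusted p = 2.19e-05). Etv1, an ETS factor of proprioceptors, rose to 185 ± 22.5 CPM in KI ganglia, against 125 ± 7.57 CPM in WT ganglia (0.56 ± 0.07). Esrrb (0.84 ± 0.13), Esrrg (0.81 ± 0.10), Onecut1 (0.71 ± 0.13), Bcl11a (0.57 ± 0.10) and Zfhx4 (0.45 ± 0.09) rose, and Hopx fell (−0.43 ± 0.05). Runx3 thus stood 0.86 and Runx1 0.29 above WT on the log2 scale, and the difference between these 2 was not tested.

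Variation that groups do not explain was described by centring log2 CPM within each group and taking Pearson's r over the 16 libraries among 13740 genes. These values are descriptions, since the libraries share depth and tissue composition. The closest patterns to Runx1 were those of Cul7 (r = 0.97), Fnbp1 (r = 0.97) and Rnf123 (r = 0.96). Shox2 ran closest to Qprt (r = 0.97), Cabp7 (r = 0.88) and Hoxb9 (r = 0.86), and Mafa to Kcnc1 (r = 0.91), Cds1 (r = 0.91) and Prrt3 (r = 0.87). Pou4f3 ran closest to Htr3a (r = 0.86), Pqbp1 (r = 0.83) and Smarcb1 (r = 0.83). Trim62 (r = 0.94) was among the 3 closest to Pou4f1, and Pou4f2 ran closest to Atp8a1 (r = 0.90), Scn7a (r = 0.89) and Lig4 (r = 0.88). For Isl1 the closest were Rnf41, Tmem169 and Sirt1 (r = 0.87 to 0.88), for Tlx3 Dtx3, Lrfn3 and Chst12 (r = 0.84 to 0.86), and for Maf Nde1, Qk and Sstr1 (r = 0.88 to 0.89).

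Markers of other cell types and states were measured beside these results. The 12 skeletal muscle genes summed to 2.68 to 60.2 CPM in KI CFA and 3.21 to 944 CPM in KI saline libraries, against 3.00 to 3.56 CPM in WT CFA and 4.17 to 87.9 CPM in WT saline libraries, and 8 of the 12 were called higher in KI ganglia. With the muscle score as a covariate the log2 difference was −0.51 ± 0.11 for Mafa, −0.34 ± 0.06 for Pou4f3 and 0.38 ± 0.10 for Shox2, all called, and 0.28 ± 0.09 for Runx1 (edgeR adjusted p = 0.0819). The 12 macrophage genes summed to 38.4 to 62.7 CPM in KI CFA and 47.8 to 71.0 CPM in KI saline libraries, against 48.3 to 72.9 CPM in WT CFA and 53.4 to 89.9 CPM in WT saline libraries, and 0 of the 12 were called. Their median log2 difference over both injections was −0.38, against 0.00 over all tested genes, and only 2 of the 12 lay above 0. The macrophage score is thus not free of the genotype. With the macrophage score as a covariate Mafa (−0.55 ± 0.11) and Pou4f3 (−0.34 ± 0.06) were called, while Runx1 (0.23 ± 0.09, edgeR adjusted p = 0.164) and Shox2 (0.32 ± 0.10, edgeR adjusted p = 0.0844) were not. The 30 ribosomal protein genes summed to 4927 to 5793 CPM in KI libraries, against 4998 to 7500 CPM in WT libraries. Within saline all 30 were lower in KI ganglia, with a median log2 difference of −0.24 and 2 called, while within CFA the median was −0.01 and 0 were called. The 9 satellite glia genes summed to 3240 to 4079 CPM in KI libraries, against 3398 to 5259 CPM in WT libraries, with the highest level in WT saline 4, and 0 were called. With log2 CPM centred within groups over the 16 libraries, Runx1 had r = −0.93 with the mean of the ribosomal list, r = −0.91 with that of satellite glia and r = 0.93 with that of the pan-neuronal genes, as a description of libraries among which WT saline 4 stands apart. The part of the ribosomal and satellite glia levels in the Runx1 difference was not tested beyond the fits without WT saline 4. The 18 axon injury genes, of which Gal is 1, summed to 544 to 662 CPM in KI libraries, against 727 to 946 CPM in WT libraries, and 4 of the 17 tested were called lower. Over both injections, 4.33% of all tested genes were called higher and 4.64% lower in KI ganglia. The part of the axon injury genes in the differences of the 9 factors was not tested. Of 9 spinal cord genes, 3 were tested and 0 were called. Haemoglobin genes Hba-a1, Hba-a2, Hbb-bs and Hbb-bt had 0 counts in every library, while the erythroid genes Slc4a1 and Alas2 reached 622 and 300 reads. The 0 counts therefore do not show that blood RNA was absent, and their reason was not tested. The whole erythroid list summed to 0.509 to 27.5 CPM in KI libraries, against 0.321 to 2.42 CPM in WT libraries.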

How the data were processed

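Per the labels' protocols, poly-A libraries were made with strand selection and read as single ends of 50 bases on 3 lanes, to which the libraries are not tied. The submitters' processing notes name build mm10, HTSeq 0.6.1p1, TopHat2 2.1.1 and Bowtie2 2.3.5.1, besides SAMtools 1.5, FastQC and bcl2fastq 2.20, and annotation and strand mode are not given in the sources used here. The authors deposited raw read counts per gene, not normalized. Entries with no Entrez identifier (28, 0.192% of counts) have symbols and were kept. Groups were taken from titles.

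The counts were fitted with edgeR 4.0.16 (R 4.3.3): TMM factors, filterByExpr by group, 1 mean for each of 4 groups over all 16 libraries, a quasi-likelihood F-test of 7 contrasts, and Benjamini-Hochberg adjustment over 15507 genes. SE is the log2 fold change divided by the square root of F. The common biological coefficient of variation was 11.8%. Log2 CPM used a prior count of 2. p-values measure the spread between pooled libraries. The exact permutation test of 4 against 4 libraries cannot go below 0.0286 and was not used. Positions and exon lengths are from GENCODE M21.

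Alternatives, 35 in all, were other size factors and filters, DESeq2 1.42.0, limma 3.58.1 voom with quality weights, robust dispersion, only the groups compared, a replicate block, covariates, thresholds, and each library left out. Of these, 5 were chosen after seeing the data: the pan-neuronal and macrophage covariates, the fit without 4 libraries, and the fits with WT libraries of lower or higher source number. The 9 factors, the gene lists and the promoter motifs were chosen with earlier results of these data, or the sequences, known. Named genes are all 9 factors, Ntrk3, at most 8 called genes per list in order of p, and the 3 genes most like each factor, and some of the results this gives are not reported here. The fits were tested on simulated data with the same dispersion for every gene and no libraries that stand apart. That test does not cover the differences in tissue composition seen here.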

Additional observations from a re-analysis of the deposited data

Results flagged for a closer look

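In 3 of the 36 combinations of a factor and a group of 4, 1 library lay far from the other 3 by Dixon's test, which chance alone does in about 1 in 20 groups. Runx1 was 77.0 CPM in WT saline 4, against 115 to 123 CPM in the other 3 WT saline libraries. That library also had the lowest pan-neuronal level of all 16 and the highest summed ribosomal protein gene level. Isl1 was 83.8 CPM in KI saline 4, against 86.6 to 86.9 CPM in the other 3 KI saline libraries. Skeletal muscle genes summed to 799 CPM in KI saline 4. They summed to 944 CPM in KI saline 1, which had 86.9 CPM of Isl1, and a link of the 2 levels was not tested. Pou4f3 was 24.1 CPM in WT CFA 3, against 22.3 to 22.6 CPM in the other 3 WT CFA libraries.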

How the results depend on the processing

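Under the 35 alternatives no value of the 9 factors that was called changed sign. Mafa (−0.61 to −0.47) and Pou4f3 (−0.36 to −0.30) were called over both injections in all 35. Over both injections 4 factors were called, and 2 (Mafa and Pou4f3) at an adjusted p under 0.01, with the macrophage covariate, without the 4 libraries that stand apart, and with only the lower WT source numbers. Runx1 also lost its call with the muscle covariate, and Shox2 with pan-neuronal size factors (0.31, edgeR adjusted p = 0.0508) and with only the higher WT source numbers (0.34, edgeR adjusted p = 0.0571). Within saline, 2 factors were called, 0 with only the groups compared or at an adjusted p under 0.01, 1 with the muscle or macrophage covariate or without the 4 libraries (Pou4f3 in each), 1 with the lower WT source numbers (Mafa), 3 (with Runx1) with the pan-neuronal covariate, and 1 to 2 when 1 library was left out. With the higher WT source numbers the 2 were Pou4f3 and Runx1 (0.45), with Mafa at −0.39 (edgeR adjusted p = 0.147). Within CFA, 2 were called, 4 by limma-voom, 3 by DESeq2 (with Shox2) or with the pan-neuronal covariate (with Runx1), 1 with the muscle covariate (Pou4f3), 1 without the 4 libraries (Runx1 alone), 0 with the macrophage covariate, the lower or the higher WT source numbers, or an adjusted p under 0.01, and 0 to 3 when 1 library was left out. The 2 within CFA were Mafa and Runx1 with pan-neuronal size factors, and Pou4f3 and Runx1 with only the groups compared. The causes were not tested. Runx1 averaged 95.9 CPM in WT saline libraries of higher and 122 CPM in those of lower source number. The higher ones are only WT saline 3, with 115 CPM, and WT saline 4, with 77.0 CPM, the library flagged above. The Runx1 difference from KI over both injections was 0.42 against the higher and 0.18 against the lower numbers. Over all genes, calls ran from 630 (adjusted p under 0.01) to 2822 (higher WT source numbers) over both injections, from 158 (higher WT source numbers) to 748 (pan-neuronal covariate) within CFA, and from 156 (adjusted p under 0.01) to 2525 (higher WT source numbers) within saline. Pan-neuronal size factors moved the median of all genes most, to −0.11 on the log2 scale in WT CFA against WT saline, where 0 factors were called. Replicate numbers did not pair the libraries (correlation of deviations −0.21 to 0.13, and 2 of 16 libraries closest to their own number), and the replicate block left 4 factors called over both injections, 2 within saline and 2 within CFA. Mafa, with 97 to 206 reads per library, has the least depth.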
